A study of Mus musculus with 8 samples.

Results

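Centrocytes were compared with centroblasts in mice that carry 1 intact copy of Smarca4 (Smarca4+/-). The comparison used 4 of the 8 libraries of the study, 2 labelled CC and 2 labelled CB, and all 12997 genes that passed a filter on low counts. CB and CC were read as centroblast and centrocyte. The cells were germinal centre B cells taken with a PNA bead kit from the spleens of C57BL/6 mice aged 8 to 10 weeks, at day 10 after immunization, and their RNA was sequenced in bulk after depletion of ribosomal RNA. The other 4 libraries were the same fractions from mice with both copies intact (Smarca4+/+), collected at the same age and day. The labels name neither the immunizing agent, nor the part of Smarca4 that was deleted, nor the cells that lack it, nor the markers by which CB and CC were separated. Whether replicates were separate mice or pools is not stated, so each p reflects variation among libraries that could be technical in origin.

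Germinal centre B cells cycle between a dark zone, where centroblasts divide and mutate their antibody genes, and a light zone, where centrocytes test antigen binding and receive help from T cells. Centroblasts are known for CXCR4 and a mitotic programme. Centrocytes are known for CD83, CD86 and, in the cells that received help, MYC and NF-kB target genes. SMARCA4 (BRG1) is an ATPase of the SWI/SNF complexes, which move nucleosomes to open chromatin.

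The CB libraries held 18357578 and 22929995 counts and the CC libraries 676852 and 837558. Over both libraries of a group, a gene with 0 reads could stand at up to 0.0754 CPM in CB and 1.88 CPM in CC, which is what 3 counts are worth. CPM is a gene's reads per 1000000 reads of its library, after TMM scaling, which corrects for library composition. Across genes the CB libraries correlated at 0.987 on the log2(CPM + 1) scale and the CC libraries at 0.823. CC replicate 2 correlated with the CB mean at 0.892 and CC replicate 1 at 0.812, so replicate 2 lay nearer to CB. Mitochondrial genome genes took 0.713% and 0.699% of counts in CB, 5.86% in CC replicate 1 and 2.24% in CC replicate 2.

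CC and CB differed in 477 genes (3.67% of those tested) at an adjusted p under 0.05 (edgeR's quasi-likelihood test, Benjamini-Hochberg), of which 282 rose (2.17%) and 195 fell (1.5%) in CC. Of the 195 genes that fell, 0 were markers of other cells, 63 belonged to B cell programmes and 132 to neither kind of list. The 63 held mitotic genes, histones and dark zone genes. Of the 282 that rose, 40 were markers of macrophages, T cells, red cells and vessels, 20 belonged to B cell programmes and 222 to neither kind of list. The share of calls that rose was 59.1% with TMM, 71.4% with RLE scaling, 76.7% with total count scaling and 80.4% when libraries were scaled to B lineage genes. The median over all tested genes moved with it, in log2 units, from -0.08 to 0.03, 0.04 and 0.12, so small differences of either sign depend on the scaling. All 477 called genes kept their sign under these scalings. The number of calls changed with the libraries used: 0 genes were called without CB replicate 1 (863 at an unadjusted p under 0.05) or without CB replicate 2 (1003). Without CC replicate 1, 64 were called, 63 of them among the 477, and without CC replicate 2, 932 were called, 408 of them among the 477. Leaving out a Smarca4+/+ CB library gave 273 or 268 calls (265 and 259 among the 477), and leaving out a Smarca4+/+ CC library gave 920 or 917 (474 and 471 among the 477).

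The targeted gene checks the genotype labels. Smarca4 (ENSMUSG00000032187.16) stood at 897 and 1002 CPM in Smarca4+/+ CB and at 734 and 702 CPM in Smarca4+/- CB. In CC it stood at 322 and 316 CPM in Smarca4+/+ and at 244 and 311 CPM in Smarca4+/-. The Smarca4+/- libraries were thus below the Smarca4+/+ libraries in both fractions, by a narrow gap in CC. Within Smarca4+/- mice Smarca4 itself fell from CB to CC (log2 fold change -1.37, SE 0.18, adjusted p = 0.00318), with both CC libraries under both CB libraries. In Smarca4+/+ mice the log2 fold change was -1.58 (adjusted p = 0.00119), and the difference between the genotypes was 0.21 (adjusted p = 0.805). Per 1000 CPM of the B lineage list, which holds 23 genes such as Ms4a1 and Cd79a, Smarca4 was 74.4 and 67.5 in CB and 30.8 and 32.0 in CC.

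Of 23 tested SWI/SNF subunits, 2 fell (8.7%, against 1.5% of all genes) and 0 rose in CC. Besides Smarca4 the one that fell was Bcl7a (302 and 361 CPM in CB, 115 and 175 in CC, log2 fold change -1.19, adjusted p = 0.0352), an accessory subunit. The list's median was -0.48, against -0.08 for all genes. Arid1a, the DNA binding subunit of the BAF form, had a log2 fold change of -0.44 (adjusted p = 0.165) and Smarca2, the alternative ATPase, 0.24 (adjusted p = 0.778). In bulk RNA, fewer cells of a kind and less RNA per cell cannot be told apart, here and in every result that follows.

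**Figure D1:**
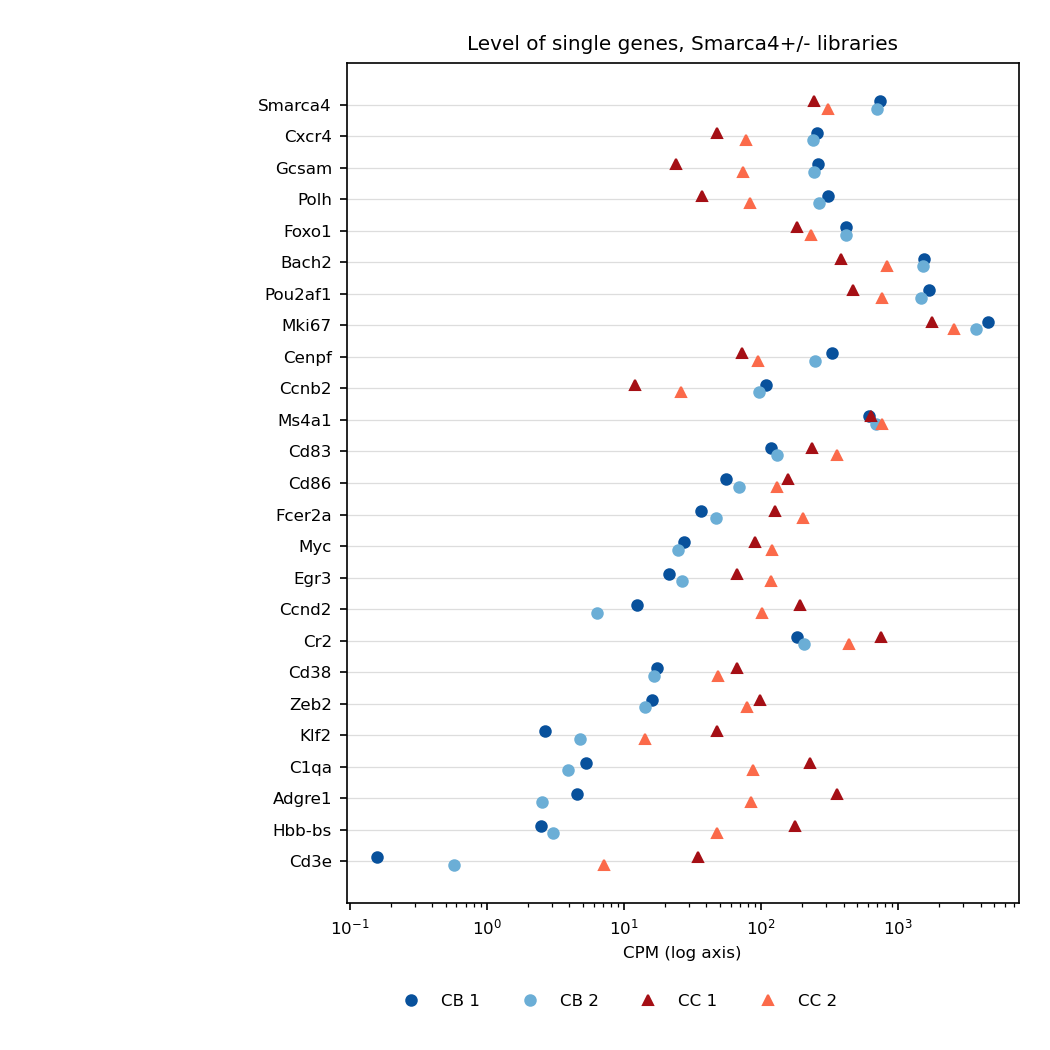
Level of single genes in the 4 Smarca4+/- libraries, in CPM on a log axis, with circles for CB and triangles for CC, 1 mark per library. Dark zone and mitotic genes lie to the left in CC and light zone genes to the right, Ms4a1 overlaps, and the markers C1qa, Adgre1, Hbb-bs and Cd3e lie far to the right in both CC libraries.

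Mitotic genes were lower in CC. All 35 tested members of the G2/M and mitosis list had both CC libraries under both CB libraries, an order found in 33.2% of all tested genes, and 12 of 35 passed the test (34.3%, against 1.5% of all genes), all downward. The summed level of the list was 11882 and 9588 CPM in CB and 4149 and 6265 CPM in CC, and its median log2 fold change was -1.19. Promoters of the list are shown because 2 motifs known from genes of late cell cycle recur in them: the CCAAT box, bound by NF-Y (letters CCAAT), and the CHR element, bound by the DREAM and MMB complexes (letters TTTGAA). Both were searched on both strands in the 250 bases before the RefSeq start (GRCm38.p6), and 30 of the 35 members had a promoter in that table. Matches are in capitals, and overlapping capitals do not occur between the motifs in these windows.
Ccnb2 (chr9:70421555-70421804, minus strand): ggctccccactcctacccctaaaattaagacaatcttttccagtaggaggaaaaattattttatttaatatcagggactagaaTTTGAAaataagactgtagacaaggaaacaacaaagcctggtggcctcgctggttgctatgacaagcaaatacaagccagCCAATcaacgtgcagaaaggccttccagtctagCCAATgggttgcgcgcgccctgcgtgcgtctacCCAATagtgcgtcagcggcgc
Cenpf (chr1:189688087-189688336, minus strand): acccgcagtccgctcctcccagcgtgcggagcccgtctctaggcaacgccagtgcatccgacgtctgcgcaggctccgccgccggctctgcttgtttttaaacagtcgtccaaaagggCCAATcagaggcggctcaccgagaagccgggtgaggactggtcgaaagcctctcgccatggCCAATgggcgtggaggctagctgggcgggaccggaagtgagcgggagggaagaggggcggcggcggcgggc
Nuf2 (chr1:169531465-169531714, minus strand): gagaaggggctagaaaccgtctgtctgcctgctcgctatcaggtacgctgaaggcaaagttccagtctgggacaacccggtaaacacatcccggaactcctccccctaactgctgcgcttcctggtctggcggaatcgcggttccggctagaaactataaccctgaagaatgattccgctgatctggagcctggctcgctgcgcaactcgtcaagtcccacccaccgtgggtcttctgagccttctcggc

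Ccnb2 held 3 CCAAT boxes and 1 CHR, Cenpf 2 CCAAT boxes and 0 CHR, and Nuf2 neither. CCAAT was in 24 of 30 list promoters (80%) and in 9 of the 10 whose gene fell (90%), against 37.1% of the 9074 tested genes with a promoter and 34.5% of all 27025 promoters. TTTGAA was in 10 of 30 (33.3%) and in 4 of the 10 (40%), against 10.8% and 16.3%. These letters describe the windows and are not measured binding.

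Ccnb2, a mitotic cyclin, stood at 109 and 96.2 CPM in CB and at 12 and 26.1 CPM in CC (log2 fold change -2.41, SE 0.47, adjusted p = 0.0183). Cenpf, a kinetochore protein, stood at 328 and 246 CPM in CB and 72.1 and 94.8 CPM in CC (-1.78, SE 0.27, adjusted p = 0.00629). Nuf2, a kinetochore subunit, stood at 87.4 and 81.4 CPM in CB and 24 and 35.6 CPM in CC (-1.49, SE 0.34, adjusted p = 0.0345). In all 3 genes both CC libraries lay under both CB libraries. The centromeric histone Cenpa (log2 fold change -2.07), the checkpoint kinase Bub1 (-1.79), the ubiquitin conjugating enzyme Ube2c (-1.73) and the spindle factor Tpx2 (-1.70) also fell. Mki67, the Ki-67 antigen of dividing cells, stood at 4527 and 3681 CPM in CB and at 1777 and 2574 CPM in CC (-0.92, SE 0.19, adjusted p = 0.0224). Top2a, the topoisomerase of dividing cells, had both CC libraries under both CB libraries and did not pass (-0.82, adjusted p = 0.0558). Each of these genes was lower in CC replicate 1 than in CC replicate 2, and without CC replicate 1 no G2/M member passed, while 19 did without CC replicate 2. With limma-voom 0 passed and with DESeq2 18.

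Histone genes that are made during DNA replication formed the largest group of decreases. Of 69 listed, 57 were tested and 29 fell (50.9%), with 0 rising, and the list's median was -1.43, or -1.39 with genes at 0 in a group set to their bound. Their summed level was 9388 and 10133 CPM in CB and 3177 and 4552 CPM in CC. Hist1h4c stood at 190 and 198 CPM in CB and 32.0 and 56.9 CPM in CC (log2 fold change -2.11, SE 0.32, adjusted p = 0.00571). Hist1h2ac (-1.87) and Hist1h2ak (-1.85) followed, and the latter was 34.7 CPM in CC replicate 1 and 129 in CC replicate 2. Histone copies share sequence, so reads may be split among them. The count of 29 fell to 8 with B lineage scaling, 5 with limma-voom and 2 without CC replicate 1.

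Genes of DNA replication and the G1/S transition differed less. Of 36 tested, 4 fell (11.1%, against 1.5% of all genes) and 0 rose, with a median of -0.61. The licensing factor Cdt1 stood at 82.4 and 86.9 CPM in CB and 24 and 23.7 CPM in CC (log2 fold change -1.83, SE 0.31, adjusted p = 0.0105). The polymerase subunit Pold1 (-1.49) and the helicase subunits Mcm4 (-0.94) and Mcm5 (-0.89) were the others. Without CC replicate 1 none of the list passed, and without CC replicate 2 9 did.

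The dark zone list without cell cycle genes also had lower levels in CC. Of 7 tested, 4 fell (57.1%, against 1.5% of all genes). Both CC libraries lay under both CB libraries in 6, an order found in 33.2% of all tested genes. Cxcr4, the chemokine receptor that holds centroblasts in the dark zone, stood at 257 and 238 CPM in CB and at 48.1 and 78.2 CPM in CC, 3.92-fold lower (log2 fold change -1.96, SE 0.27, adjusted p = 0.00435). Cxcr4 may have been used to separate the fractions, in which case it checks the separation and is no result. Gcsam, a germinal centre signalling adaptor, stood at 259 and 244 CPM in CB and at 24 and 73.5 CPM in CC (-2.35, SE 0.39, adjusted p = 0.00891). Foxo1, a transcription factor of the dark zone programme, stood at 414 and 415 CPM in CB and at 183 and 231 CPM in CC (-1.0, SE 0.19, adjusted p = 0.0174). Rgs13, a regulator of chemokine signalling, differed least (-0.07, adjusted p = 0.928).

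Of 16 hypermutation and base repair genes, 2 fell (12.5%, against 1.5% of all genes) and 0 rose. Polh, the polymerase that copies across damaged bases at A and T sites, stood at 306 and 266 CPM in CB and at 37.4 and 83.0 CPM in CC (log2 fold change -2.24, SE 0.37, adjusted p = 0.0089). Hmces, which shields abasic sites, stood at 489 and 442 CPM in CB and at 108 and 154 CPM in CC (-1.82, SE 0.21, adjusted p = 0.00262). Both were lower in CC replicate 1, and both lay well clear of CB in each CC library.

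Of 21 germinal centre transcription factors, 5 fell (23.8%, against 1.5% of all genes) and 0 rose. Besides Foxo1 these were Bach2, which restrains plasma cell formation (1557 and 1511 CPM in CB, 382 and 825 CPM in CC, log2 fold change -1.34), and Pou2af1, the OCT coactivator (1680 and 1480 CPM in CB, 471 and 761 CPM in CC, -1.36). Spib (-0.79) and Foxp1 (-0.78) were the others. Bcl6, the factor that defines the germinal centre state, stood at 537 and 586 CPM in CB and at 462 and 549 CPM in CC, with overlapping groups (-0.15, SE 0.21, adjusted p = 0.749).

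B cell identity was carried by both fractions. Ms4a1 (CD20) stood at 617 and 691 CPM in CB and at 634 and 760 CPM in CC, with overlapping groups (log2 fold change 0.09, adjusted p = 0.829). Of 23 B lineage genes, 2 rose (Fcer2a, Cr2) and 2 fell (Pou2af1, Cd24a). Of 10 MHC class II presentation genes 0 passed (0 at an unadjusted p under 0.05, 0 with DESeq2), and their median was 0.02. Of 20 antigen receptor signalling genes 0 passed (3 at an unadjusted p under 0.05, 2 with DESeq2), and their median was -0.21. Over all genes 2359 had an unadjusted p under 0.05. Among 13 immunoglobulin constant genes and the J chain, 3 fell: Igkc (log2 fold change -0.92), Ighm (-0.86) and Jchain (-0.93). Per 1000 CPM of the B lineage list, Ighm was 536 and 426 in CB and 275 and 326 in CC.

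**Figure D2:**
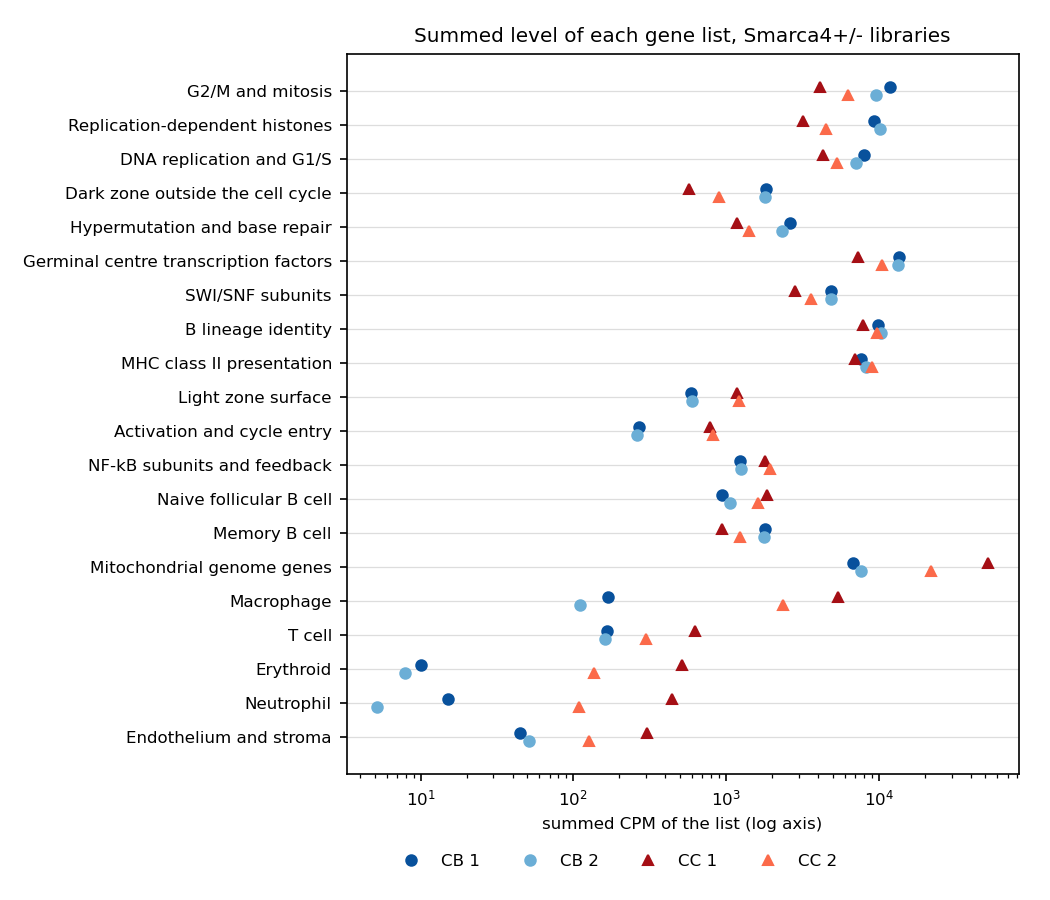
Summed CPM of each gene list in the 4 Smarca4+/- libraries, on a log axis, with circles for CB and triangles for CC, 1 mark per library. The B lineage and MHC class II sums lie close in CB and CC, the mitotic, histone and dark zone sums are lower in CC, and the macrophage sum is 168 and 110 CPM in CB against 5389 and 2352 CPM in CC.

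Light zone genes were higher in CC. Of 10 light zone surface genes, 3 rose (30%, against 2.17% of all genes), 0 fell and 8 had both CC libraries above both CB libraries, an order found in 20.2% of all tested genes. Their summed level was 588 and 603 CPM in CB and 1188 and 1213 CPM in CC. Cd83, a light zone surface protein, stood at 118 and 131 CPM in CB and at 235 and 357 CPM in CC (log2 fold change 1.25, SE 0.26, adjusted p = 0.0229). Cd86, the costimulatory ligand, stood at 55.5 and 68.6 CPM in CB and at 158 and 132 CPM in CC (1.22, SE 0.24, adjusted p = 0.0207), and may also have served to separate the fractions. Fcer2a (CD23), the low affinity IgE receptor, stood at 36.3 and 47.1 CPM in CB and at 126 and 203 CPM in CC (1.98, SE 0.31, adjusted p = 0.00692). Cd40, the receptor for T cell help, did not pass (1.25, adjusted p = 0.096).

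Of 13 tested activation and cycle entry genes, 6 rose (46.2%) and 0 fell, with a median of 1.56. Myc, which marks centrocytes chosen to return to the dark zone, stood at 27.6 and 24.7 CPM in CB and at 90.8 and 121 CPM in CC, 4.04-fold higher (log2 fold change 2.02, SE 0.28, adjusted p = 0.00457). Ccnd2, the D cyclin of cycle entry, stood at 12.5 and 6.34 CPM in CB and at 192 and 102 CPM in CC (3.96, SE 0.46, adjusted p = 0.00262). The early response genes Egr3 (1.96), Egr1 (1.44) and Nr4a1 (1.56) and the transcription factor Bhlhe40 (2.11) also rose. Irf4, a factor of plasma cell fate, stood at 59.4 and 34.4 CPM in CB and at 124 and 99.6 CPM in CC and did not pass (1.25, adjusted p = 0.0656). Prdm1, its partner in that fate, did not pass either (2.67, adjusted p = 0.0623), and 0 of 9 tested plasma cell genes rose (4 with DESeq2).

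Of 16 NF-kB genes, 3 rose (18.8%) and 0 fell: the subunit Nfkb2 (log2 fold change 1.24) and the feedback inhibitors Nfkbid (1.53) and Tnfaip3 (1.51). Nfkbid stood at 31.6 and 28.9 CPM in CB and at 82.8 and 91.3 CPM in CC. The 28 ribosome biogenesis and MYC target genes had a median of 0.35, and 0 passed (6 at an unadjusted p under 0.05, 5 with DESeq2). The 20 interferon stimulated genes had a median of 1.23, and 0 passed (5 at an unadjusted p under 0.05, 6 with DESeq2). Without CC replicate 1 the light zone, activation and NF-kB lists had 2, 3 and 0 rising members, and without CC replicate 2 they had 4, 5 and 3.

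Genes of memory and naive B cells gave a mixed picture. Of 15 memory genes, 6 rose (40%) and 2 fell (13.3%, Bach2 and Nt5e), and of 9 naive follicular genes, 3 rose (33.3%, Fcer2a and Cr2 among them). Cd38, low on mouse germinal centre B cells, stood at 17.4 and 16.6 CPM in CB and at 66.8 and 48.6 CPM in CC (log2 fold change 1.76, SE 0.32, adjusted p = 0.0142). Zeb2, a transcriptional repressor, stood at 16.1 and 14.2 CPM in CB and at 98.8 and 79.4 CPM in CC (2.55, SE 0.33, adjusted p = 0.00309). Bcl2, the survival factor that germinal centre B cells silence, stood at 1.37 and 0.288 CPM in CB and at 37.4 and 16.6 CPM in CC (5.01, SE 0.83, adjusted p = 0.00891), which is 28 and 14 counts in CC. Ccr6, a memory precursor receptor, rested on 2 and 2 counts in CB and on 16 and 6 counts in CC (6.97, SE 1.15, adjusted p = 0.00875). Klf2 (3.06), a regulator of B and T cell migration, rose, and S1pr1, the receptor for leaving the tissue, did not pass (1.94, adjusted p = 0.0553). Nt5e (CD73), an ectoenzyme of memory B cells, fell (-2.19). Bcl2, Ccr6, Klf2 and S1pr1 are also expressed by T cells, whose markers rose in the same libraries. Macrophage markers rose there too. What T cells, macrophages or other cells add to these values, those of Cd38 and Zeb2 included, was not tested.

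Markers of other cells rose in CC. Of 123 genes on lists for other cells, 78 passed the low count filter. Of these, 40 rose (51.3%) and 0 fell. Markers near 0 in CB could pass that filter only through CC libraries, where they were higher. The shares that rose and the medians of the macrophage, T cell and erythroid lists therefore depend on the filter and are no separate support. Of 21 tested macrophage genes 18 rose, with a median log2 fold change of 4.91, Marco was at 0 in both CB libraries, and Trem2 was at 0 in all 4 libraries. C1qa, a complement protein of macrophages, stood at 5.27 and 3.94 CPM in CB and at 230 and 87.7 CPM in CC (5.10, SE 0.57, adjusted p = 0.00262). Adgre1 (F4/80) stood at 4.53 and 2.55 CPM in CB and at 361 and 84.2 CPM in CC (5.97, SE 0.85, adjusted p = 0.00457). Cd163, the haemoglobin scavenger receptor (5.24), and Hmox1, the haem oxygenase (4.72), rose as well, and Marco (14 and 2 counts in CC) was at least 140-fold higher. Without CC replicate 1, 5 of the macrophage genes passed.

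Of 24 tested T cell genes 13 rose, with a median of 5.53, and their summed level was 165 and 162 CPM in CB and 628 and 299 CPM in CC. Cd3e, a T cell receptor subunit, stood at 0.158 and 0.576 CPM in CB and at 34.7 and 7.11 CPM in CC (log2 fold change 5.75, SE 0.94, adjusted p = 0.0104), which is 26 and 6 counts in CC. Cd8b1 (6.41) and Bcl11b (5.59) rose. Trbc1 and Icos were at 0 in both CB libraries, and Cd40lg was at 0 in both CC libraries. Lck, listed as a T cell kinase, was high in CB too (110 and 108 CPM, against 100 and 166 CPM in CC, 0.29, adjusted p = 0.586). Tcf7, a T cell factor, stood at 77.4 CPM in CC replicate 1 and at 2.37 CPM in CC replicate 2, so 1 library carried most of it. Without CC replicate 1, 0 T cell genes passed.

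Of 13 tested erythroid genes 6 rose, with a summed level of 10.1 and 7.93 CPM in CB and 513 and 138 CPM in CC. Hbb-bs, an adult beta globin, stood at 2.48 and 3.03 CPM in CB and at 178 and 47.4 CPM in CC (log2 fold change 5.33, SE 0.59, adjusted p = 0.00262), and Hba-a1, an alpha globin, rose by 6.75. Gata1, the erythroid transcription factor, was at 0 in both CB libraries, and Rhag and Tspo2 were at 0 in both CC libraries. Of 9 endothelial and stromal genes 3 rose (Vwf, Col4a1, Pecam1). The neutrophil sum was 15 and 5.19 CPM in CB and 441 and 109 CPM in CC, and 0 of its 6 tested genes passed (5 at an unadjusted p under 0.05, 2 with DESeq2). Csf3r, a neutrophil growth factor receptor, came nearest (5.98, adjusted p = 0.0526). The NK cell, dendritic cell and megakaryocyte lists had 2, 2 and 1 tested members, of which 0 passed and 1 each did with DESeq2.

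The macrophage, T cell, erythroid, neutrophil, NK cell and stromal sums were higher in CC replicate 1 than in CC replicate 2, while the dendritic cell sum was 29.4 and 48.6 CPM and the megakaryocyte sum 20 and 73.5 CPM in the same order. The ratio of replicate 1 to replicate 2 was 2.29 for macrophage genes, 2.10 for T cell genes (3.97 without Lck, left out after its values were seen), 3.73 for erythroid genes and 4.04 for neutrophil genes. It was 2.37 for mitochondrial genome genes, 0.82 for B lineage genes, 0.66 for G2/M genes and 0.63 for dark zone genes. For light zone surface, activation and NF-kB genes it was 0.98, 0.95 and 0.92.

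**Figure D3:**
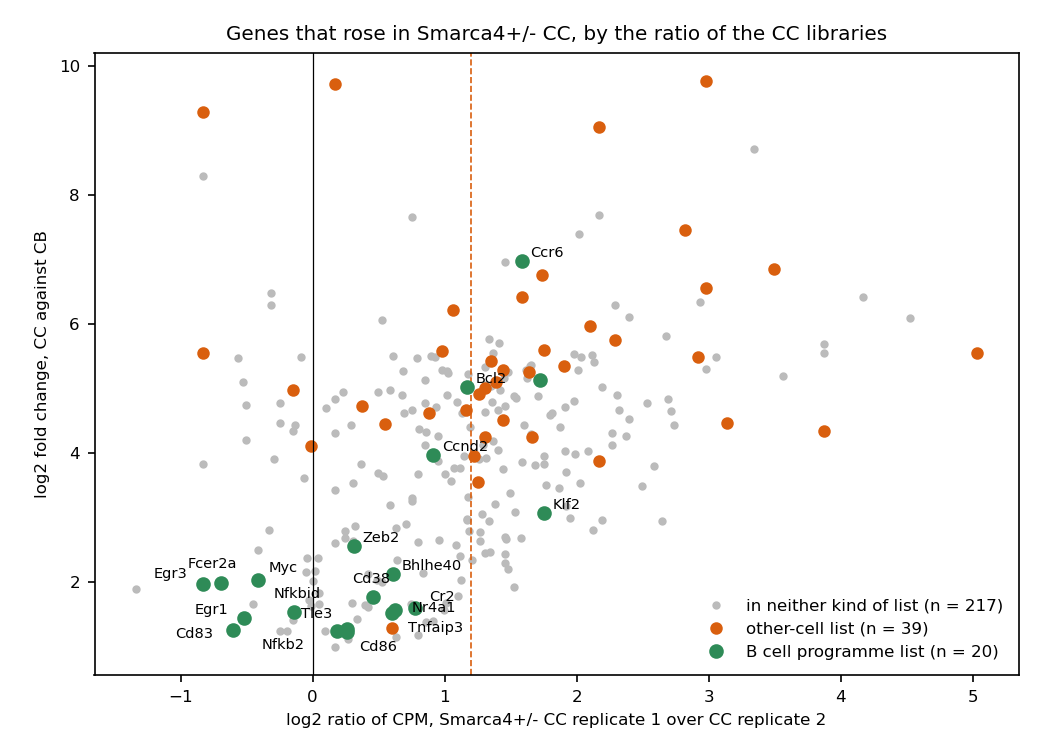
Each point is a gene that rose in Smarca4+/- CC with reads in both CC libraries (276 of 282), placed by the log2 ratio of CPM in CC replicate 1 over CC replicate 2 and by its log2 fold change against CB, and the dashed line marks the ratio of the macrophage sum (2.29). Egr3, Fcer2a, Cd83, Egr1, Myc and Nfkbid lie left of 0, Klf2 and Ccr6 right of the dashed line, and most other-cell markers and unlisted genes lie to the right.

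The 282 genes that rose were read gene by gene on the same ratio. Among the 40 other-cell markers it had a median of 2.71 and exceeded 1.5 in 32. Among the 222 genes on neither kind of list the median was 2.19 and 157 exceeded 1.5. Among the 20 B cell programme genes the median was 1.31 and 9 exceeded 1.5. Egr3 (0.563), Fcer2a (0.619) and Cd83 (0.659) were more than 1.5-fold higher in the library with fewer marker reads. Egr1 (0.699), Myc (0.751), Nfkbid (0.907), Nfkb2 (1.14), Cd86 (1.20), Tle3 (1.20), Zeb2 (1.24) and Cd38 (1.37) differed by less than 1.5-fold in either direction. Tnfaip3 (1.51), Bhlhe40 (1.52), Nr4a1 (1.54), Cr2 (1.71), Ccnd2 (1.89), Bcl2 (2.25), Ccr6 (3.0) and Klf2 (3.38) were higher where markers were higher. The part of other cells in the increase of any of these genes was not tested.

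Levels were also taken relative to the B lineage list. It is not a fixed reference, since of its 23 genes 2 rose (Fcer2a, Cr2) and 2 fell (Pou2af1, Cd24a) in CC. Whether other cells add to its level was not tested. Per 1000 CPM of that list, Myc was 2.80 and 2.38 in CB and 11.5 and 12.5 in CC, 4.62-fold higher. Cd83 was 11.9 and 12.6 in CB and 29.7 and 36.8 in CC, 2.71-fold higher. Cxcr4 was 26.0 and 22.9 in CB and 6.07 and 8.06 in CC, 3.46-fold lower, and Mki67 was 459 and 354 in CB and 224 and 265 in CC, 1.66-fold lower.

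Mitochondrial genome genes rose in CC. Of 10 tested, 6 rose (60%), with a median of 2.38, and their summed level was 6777 and 7636 CPM in CB and 51970 and 21961 CPM in CC. The complex I subunits mt-Nd4 (log2 fold change 2.76) and mt-Nd5 (2.57) and the oxidase subunit mt-Co1 (2.34) were among them. Of 75 nuclear genes of the same respiratory chain 0 passed (11 at an unadjusted p under 0.05, 5 with DESeq2), and their median was -0.55. Of 83 ribosomal protein genes 2 fell (2.41%, against 1.5% of all genes), Rps28 (-1.46) and Rps15a (-1.08). Of 18 endoplasmic reticulum chaperones 1 rose (5.56%, against 2.17% of all genes), the disulfide isomerase Pdia4 (1.39). Of 14 BCL2 family genes Bcl2 rose (7.14%, against 2.17% of all genes). Bcl2l11 (BIM, which promotes cell death) fell (-1.39), which is 7.14% of that list, against 1.5% of all genes. Of 170 tested immunoglobulin V segments 1 fell (0.588%, against 1.5% of all genes), and 48 were at 0 in both libraries of a fraction.

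**Figure D4:**
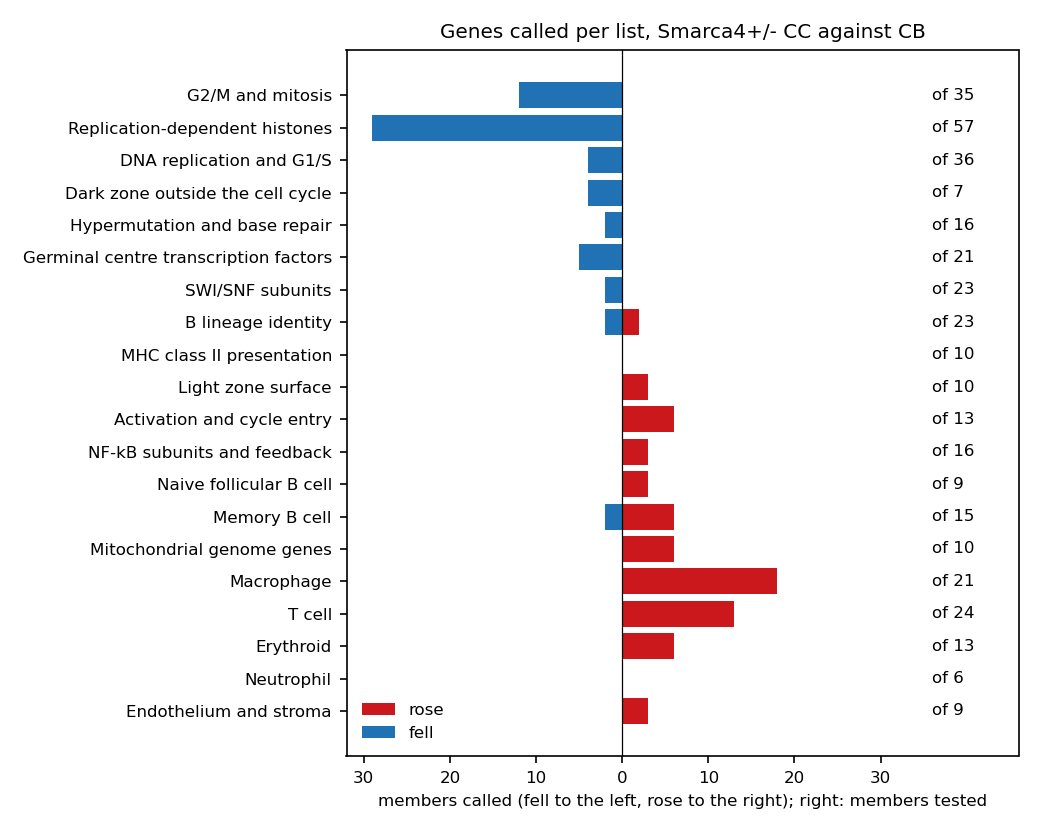
Number of tested members of each list that fell (left) or rose (right) in Smarca4+/- CC against CB, with the number tested at the right. Histones (29 of 57) and macrophage markers (18 of 21) hold the most calls, and the B lineage list has 2 in each direction.

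The largest changes were ranked among called genes outside the other-cell lists whose mean reached 5 CPM and whose CB and CC libraries did not overlap, leaving out immunoglobulin segments, predicted genes, pseudogenes and clones. The 12 largest increases with at least 10 counts in each CC library were Tifab, Fcgrt, C3, Pilra, Tgfbi, Agap1, Ptprm, Pilrb2, Kcna2, Slc8a1, Sort1 and Paqr9. Fcgrt, the neonatal Fc receptor, stood at 1.16 and 0.384 CPM in CB and at 61.4 and 42.7 CPM in CC (log2 fold change 6.06, SE 0.87, adjusted p = 0.00489). The complement gene C3 stood at 1.48 and 0.432 CPM in CB and at 74.8 and 29.6 CPM in CC (5.76, SE 0.72, adjusted p = 0.00291). Pilra, an inhibitory receptor of myeloid cells, was 74.8 CPM in CC replicate 1 and 19.0 in CC replicate 2. What macrophages add to these values was not tested.

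The 12 largest decreases, ranked in the same way with at least 3 counts in each CC library, were Otub2, Slco4a1, Lmo4, Hspa2, Rab11fip4, Ccnb2, Gcsam, Ubqln2, Polh, Dusp5, Nt5e and Nlrx1. Otub2, a deubiquitinase, stood at 77.2 and 67.2 CPM in CB and at 5.34 and 9.48 CPM in CC (log2 fold change -3.26, SE 0.48, adjusted p = 0.00571). Lmo4, a LIM domain cofactor, stood at 106 and 82.3 CPM in CB and at 13.4 and 14.2 CPM in CC (-2.77, SE 0.38, adjusted p = 0.00414). Hspa2, a heat shock protein, stood at 66.0 and 49.6 CPM in CB and at 8.01 and 9.48 CPM in CC (-2.72, SE 0.44, adjusted p = 0.00875). All 3 were low in both CC libraries. Another 4 called genes had 0 reads in both CC libraries: the receptor tyrosine kinase Ret (at least 7.79-fold lower), Hist3h2ba (at least 7.28-fold), the NF-kB adaptor Tifa (at least 6.20-fold) and the helicase Ddx28 (at least 5.04-fold). All 195 genes that fell had both CC libraries under both CB libraries, an order found in 33.2% of all tested genes. The calls were made on the same libraries, so this order adds no further evidence.

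The same fraction contrast in Smarca4+/+ mice called 973 genes (7.49%), 484 up (3.72%) and 489 down (3.76%). Of the genes that rose in Smarca4+/- CC, 221 also rose in Smarca4+/+ CC, which is 78.4% of the Smarca4+/- list and 45.7% of the Smarca4+/+ list. Of those that fell, 118 fell in both, which is 60.5% and 24.1%. None was called in opposite directions. Other-cell markers rose in Smarca4+/+ CC too: 16 of 21 macrophage, 18 of 24 T cell and 9 of 13 erythroid genes. The macrophage sum was 83.4 and 385 CPM in Smarca4+/+ CB and 4281 and 4432 CPM in Smarca4+/+ CC. The genes that rose in Smarca4+/- held 40 other-cell markers, 222 unlisted genes and 20 B cell programme genes. Their overlap with Smarca4+/+ thus does not describe B cell genes alone. Log2 fold changes of the G2/M list had a median of -1.19 in Smarca4+/- and -2.23 in Smarca4+/+, with 12 and 29 of 35 members falling. The list's summed level in CC was 4149 and 6265 CPM in Smarca4+/- and 2509 and 2625 CPM in Smarca4+/+.

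The difference between the genotypes was tested gene by gene as the genotype by fraction interaction. It called 0 genes (0% of 12997) with edgeR's quasi-likelihood test and 1195 at an unadjusted p under 0.05, and the smallest adjusted p was 0.0733. DESeq2 called 339. For Mki67 the log2 fold change was -0.92 in Smarca4+/- and -1.87 in Smarca4+/+, a difference of 0.95 (SE 0.26, adjusted p = 0.419). Foxm1, the transcription factor of G2/M genes, stood at 85.5 and 123 CPM in Smarca4+/- CC and at 14.3 and 29.4 CPM in Smarca4+/+ CC, and its difference was 2.22 (adjusted p = 0.419). S1pr1 stood at 44.1 and 16.6 CPM in Smarca4+/- CC and at 113 and 173 CPM in Smarca4+/+ CC (difference -2.20, adjusted p = 0.419). None of the differences of Mki67, Foxm1 and S1pr1 passed. Igkc, Ighm and Jchain, which fell in Smarca4+/-, had log2 fold changes of -0.25, -0.21 and -0.40 in Smarca4+/+ that did not pass. The interaction did not pass for any of them, so no difference between the genotypes was shown.

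**Figure D5:**
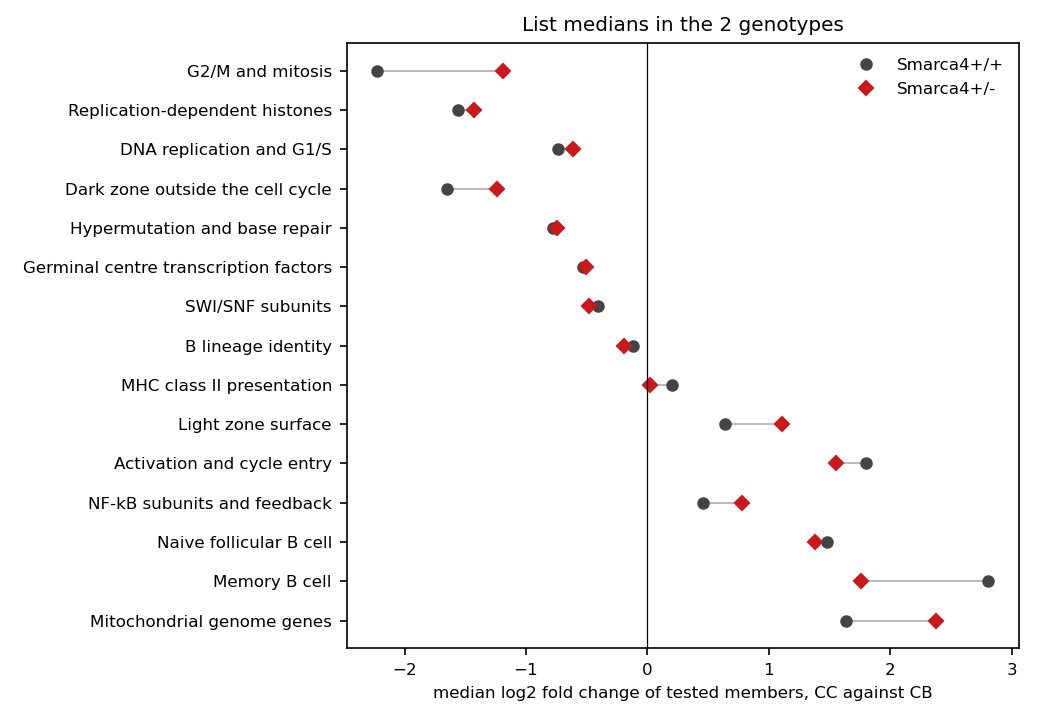
Median log2 fold change of the tested members of each list, CC against CB, in Smarca4+/+ (circles) and Smarca4+/- (diamonds). The plot leaves out the lists of other cell types, most general lists and several B cell programme lists. Among the lists left out, migration and confinement genes (0.61 in Smarca4+/+ and -0.07 in Smarca4+/-) and ribosomal protein genes (0.26 and -0.42) had medians of opposite sign. So did neutrophil genes (-2.23 and 4.10), whose list summed to 10 and 0 counts in the Smarca4+/+ CC libraries. Each list drawn has medians of the same sign, and the widest gaps are those of G2/M genes (-2.23 and -1.19) and memory genes (2.81 and 1.76).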

How the data were processed

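The authors deposited unnormalized read counts for each gene in 8 libraries made from ribosomal RNA depleted libraries. Per the submitters' processing notes, FastQC, STAR, featureCounts, Subread and R 4.2.1 were used with the mouse build mm10. Strandedness and the handling of reads with several matches are not stated, so overlapping, antisense and near-identical genes are uncertain. The other deposited column, gene length in bases, was not used for any printed value. Of 55421 gene identifiers, 54587 matched GENCODE M21 with their version and 55154 had a symbol.

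The analysis used edgeR 4.0.16 under R 4.3.3. The low count filter was filterByExpr with a minimum count of 10 and a minimum total of 15. A quasi-likelihood model with 4 group means was fitted to all 8 libraries after TMM scaling (4 residual degrees of freedom). The 3 contrasts, CC against CB in each genotype and their difference, were tested 2-sided with Benjamini-Hochberg adjustment over all genes at 0.05. Each SE is the fold change divided by the root of its F statistic. Correlations across genes describe libraries, and genes are not independent replicates. Floors of 3 counts cover counting error only. The fit was tested on simulated data.

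The comparison, its 34 gene lists and the tests were chosen with earlier results of these data known. Lists were described by counts and medians, without a list test. Named genes were up to 6 called and 2 uncalled members per list, the 12 largest increases and decreases (mean of at least 5 CPM, no overlap, at least 10 and 3 counts in each CC library), called genes at 0 in CC, the genes with the smallest interaction p and a fixed set. Tcf7, Hmox1, Arid1a and Smarca2 were picked from the lists after their values were seen. Some genes that this rule names are not reported here. Promoters came from a RefSeq table (GRCm38.p6), and those printed had windows outside the GENCODE gene. Alternatives were DESeq2 1.42.0, limma-voom (limma 3.58.1), other scalings, low count filters, gene exclusions, a replicate block, the compared groups alone, thinned CB libraries and each library left out.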

Additional observations from a re-analysis of the deposited data

Results flagged for a closer look

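Of the genes followed under the alternatives, 4 had CC and CB libraries without overlap and in opposite order in the genotypes. Among all 12997 tested genes 907 did, of which 11 were called in Smarca4+/- and 27 in Smarca4+/+. The interaction test of each difference, adjusted with edgeR's quasi-likelihood fit, did not pass. Ighg2b, the IgG2b constant gene, stood at 168 and 142 CPM in Smarca4+/- CB, 101 and 116 in Smarca4+/- CC, 142 and 149 in Smarca4+/+ CB and 406 and 517 in Smarca4+/+ CC, an interaction of -2.17 on the log2 scale (adjusted p = 0.0971). Ighv1-42, a heavy chain V segment, stood at 29.0 and 13.8, then 8.01 and 7.11, against 22.4 and 21.2, then 197 and 255 CPM in the same order (-4.88, adjusted p = 0.0733).

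Ubqln2, a proteasome shuttle protein, stood at 39.2 and 35.7 CPM in Smarca4+/- CB, 10.7 and 4.74 in Smarca4+/- CC, 35 and 36 in Smarca4+/+ CB and 78.6 and 39.2 in Smarca4+/+ CC (-3.03, adjusted p = 0.419). Ddx28 stood at 8.43 and 10.6 CPM in Smarca4+/- CB and had 0 reads in both Smarca4+/- CC libraries. In Smarca4+/+ it stood at 7.62 and 7.93 CPM in CB and 21.4 and 13.1 CPM in CC, and its fitted interaction of -10.78 (adjusted p = 0.419) depends on the prior count.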

How the results depend on the processing

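DESeq2 called 1487 genes in Smarca4+/- (967 rose, 520 fell), 42 rising and 96 falling B cell programme genes, 2167 genes in Smarca4+/+ and 339 interactions. Without a low count filter the same numbers were 1142 (670 and 472), 33 and 118, 1651 and 46, and 61 other-cell markers rose. With limma-voom 57 genes fell, and 13 B cell programme genes rose and 16 fell. Genes that fell numbered 122 with RLE scaling, 99 with total count scaling and 128 with a stricter filter, which left 22 rising other-cell markers. B lineage scaling, chosen after seeing the data, gave 77 that fell, 29 of them in B cell programmes. With only the groups compared, 308 genes were called (77 fell, 34 in B cell programmes) and 292 in Smarca4+/+. With CB thinned to the mean CC total, 285 were called (91 fell, 36 in B cell programmes), 609 in Smarca4+/+ and 1 interaction. Without the other-cell genes 440 genes were called, and 0 such markers remained by construction. The cause of the other shifts was not tested.

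Replicate numbers were not taken as pairs: the labels do not give them a meaning, and the deviations of same-numbered CB and CC libraries correlated at 0.0928 over 5176 genes. In each of the 4 groups replicate 1 had the lower ribosomal RNA share and the higher mitochondrial share, and whether equal numbers mark 1 mouse or batch is not known. A replicate block called 443 genes (249 rose, 194 fell) and 1 interaction. A replicate block within genotype called 576 (282 rose, 294 fell) and 13 interactions.

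Leaving out 1 library in turn gave 0 to 932 called genes, 0 to 487 that rose, 0 to 455 that fell, 0 to 49 rising other-cell markers, 0 to 31 rising and 0 to 100 falling B cell programme genes, 222 to 1413 genes in Smarca4+/+ and 0 to 1 interactions. Without CC replicate 1, 470 of 475 called genes that were tested kept their sign.

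For 112 genes followed under each alternative that tested them, 1797 of 2400 values kept their side of the threshold, 543 lost the call, 55 gained one and 5 changed sign. The sign changes were Bcl6 with B lineage scaling (0.051), and others when 1 library was left out, where log2 fold changes ran from -0.072 to 0.22 for Ms4a1, -0.15 to 0.58 for Lck and -0.44 to 0.40 for Anln. None of these genes was called. The CC depth sets a bound of about 1.88 CPM for genes with 0 reads in both CC libraries. Low depth also limits genes above that bound. With CB thinned to the mean CC total, 8216 genes were tested and 285 called, against 12997 and 477 at full depth.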
